A study of Rattus norvegicus with 20 samples.

Results

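The genes described here are 6 CC chemokine ligands, Ccl2, Ccl3, Ccl4, Ccl5, Ccl6 and Ccl7, measured as RNA in rat blood. They are 6 of 14217 genes that the array measures through probe sets of a single gene symbol, and each is represented by 1 of 31042 probe sets. A probe set was taken where the platform's annotation gave it exactly 1 gene symbol and that symbol was one of the 6. CC chemokines are small secreted proteins, named for a pair of adjacent cysteines, that bind G protein-coupled receptors on white blood cells and guide these cells towards injured or infected tissue. Ccl2 and Ccl7 are monocyte chemoattractants that act through the receptor Ccr2, Ccl3, Ccl4 and Ccl5 are made by cytotoxic lymphocytes and by activated monocytes, and Ccl6 is a chemokine of myeloid cells known from rodents. In liver injury by acetaminophen (APAP), Ccl2 is known for the recruitment of monocytes to the liver.

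Male Wistar rats, an outbred strain, were given 1 oral dose of 1200 mg/kg APAP, and of 35 treated rats the 5 with the highest serum alanine transaminase 24 h later were called susceptible and the 5 with the lowest resistant. Blood of these rats was measured on 20 Affymetrix Rat Genome 230 2.0 arrays in 4 groups of 5: susceptible rats after APAP (SA), susceptible rats before it (S), resistant rats after APAP (RA) and resistant rats before it (R). Predose blood was taken 1 week before dosing. Postdose blood was taken 24 h after dosing, which followed a fast of 12 h and was followed by a further 2 h without food. All rats were anaesthetized for bleeding. The methods give the retro-orbital plexus for the predose and the inferior vena cava for the postdose blood, while the sample labels give the plexus for both. Red cells were lysed first. Vehicle-treated rats are not on the arrays, so that APAP, fasting, day and site of bleeding cannot be told apart in a postdose change. The sub-groups are the ends of a ranking by the outcome, and nothing else was varied between them. The postdose arrays are of the same rats as the predose arrays, but the labels do not say that equal replicate numbers are 1 rat, and the arrays were therefore treated as separate samples.

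The unit throughout is the signal of a probe set on an array, scaled so that the median of each array is 1000. Deposited medians per array were 187 to 223, so that the scaling changed the arrays by similar factors. The bacterial trp probe sets, which match no rat RNA, served as negative controls, and the highest of them reached 34.9 to 279 on the 20 arrays. As a measure of intact RNA, the log2 signal of the actin control at its 3' end minus that at its 5' end was 0.79 ± 0.10 on SA, 0.87 ± 0.05 on S, 0.76 ± 0.10 on RA and 0.80 ± 0.03 on R arrays (SD, n = 5 each). A gene is called changed where the limma adjusted p (Benjamini-Hochberg over all probe sets tested) was under 0.05. Defining markers of T cells (14 of 14 measured), B cells (6 of 6) and cytotoxic lymphocytes (13 of 13) were above the highest trp probe set on every array, as were 9 of 11 monocyte and 9 of 10 neutrophil markers, which fits the label of blood.

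Ccl2 fell in resistant rats after APAP, its change in susceptible rats was not called, and after dosing every SA array lay above every RA array. On the RA arrays its signal was 1217, 818, 966, 724 and 1615 in replicates 1 to 5, against 1351, 23036, 11503, 18267 and 4186 on the R arrays. On the SA arrays it was 7636, 6161, 9411, 14135 and 10783, against 13428, 11608, 2483, 3864 and 6381 on the S arrays. Every RA array was also below every S array, and only R replicate 1 lay within the range of the RA group. The R group was the widest of the 4, with a highest signal 17 times the lowest, and its SD of 1.69 on the log2 scale compares with 0.46 in the RA and in the SA group and 1.03 in the S group.

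In resistant rats the median Ccl2 signal was 966 after and 11503 before APAP, and the mean log2 signals (n = 5 each) differed by -2.91 (standard error 0.63, limma adjusted p = 0.0106), which is 7.54-fold lower after APAP with a 95% interval of 2.99 to 19.0. This fall ranked 8 in size among the falls of all 30747 probe sets tested. It was called without any 1 of the 20 arrays (-3.54 to -2.52), but not when only the 10 arrays of resistant rats entered the fit (adjusted p = 0.0668) or with the methods' test of unequal variances (adjusted p = 0.183). That test of unequal variances gave an unadjusted p of 0.0161. The methods used it on the predose arrays and name no adjustment, which was added here wherever their test is given. In susceptible rats the difference was 0.56 (95% interval -0.77 to 1.90, adjusted p = 0.705), an interval that includes both a fall and a 3.73-fold rise. The difference between these changes was 3.48 (standard error 0.90, 95% interval 1.59 to 5.37), with an unadjusted p of 0.00114 and a limma adjusted p of 0.340, so that it did not pass over all probe sets. In this test 0% of the 30747 probe sets passed, while 6.9% (2122) had an unadjusted p under 0.05.

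Between the sub-groups after dosing, Ccl2 was 9.03-fold higher in SA than in RA blood (log2 difference 3.17, standard error 0.63, 95% interval 1.84 to 4.51). All 5 SA arrays were above all 5 RA arrays, a separation in this direction that 1.56% of all probe sets showed, and the difference ranked 9 among those higher in SA. Its limma adjusted p was 0.0538, just outside the threshold. It came inside the threshold when only the 10 postdose arrays were fitted (adjusted p = 0.0139), and also without R replicate 1, 2 or 5 (adjusted p = 0.0177, 0.0355 and 0.0468), each with the same difference of 3.17, since those arrays enter only the estimate of the spread. Over the alternatives tried the adjusted p ran between 0.0139 and 0.144.

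**Figure D1:**
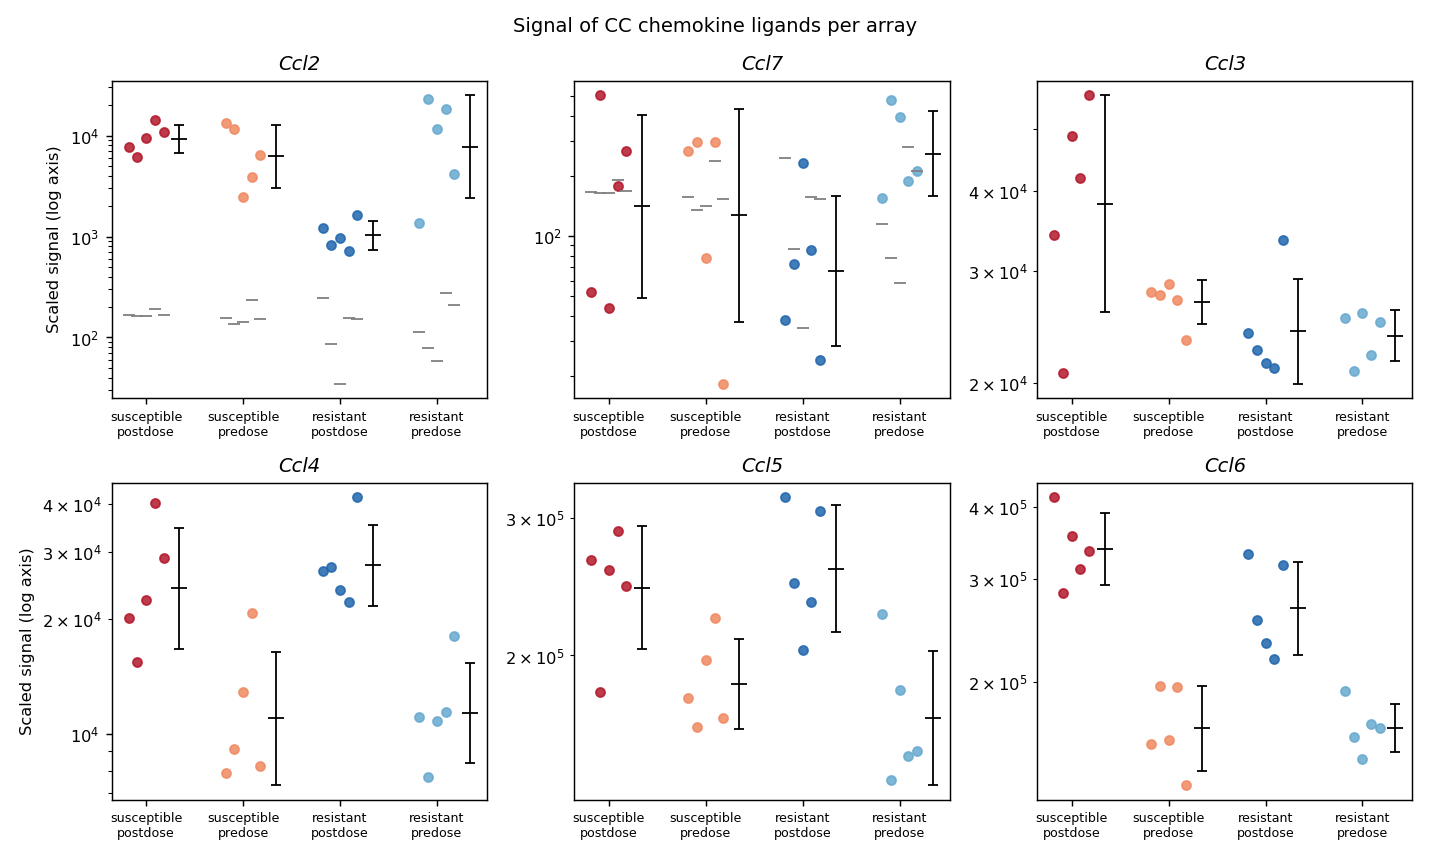
Signal of each ligand on each array (vertical log axis, scaled to an array median of 1000), with 5 points per group for SA, S, RA and R from left to right, and beside them the mean and SD of the log2 values. Grey dashes in the Ccl2 and Ccl7 panels are the highest negative control of each array. The RA arrays carry low Ccl2 signals (724 to 1615), among which only R replicate 1 (1351) of the other arrays lies, and Ccl7 lies among the grey dashes.

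Ccl7, the other ligand of Ccr2, lies next to Ccl2 on chromosome 10 (GRCr8 annotation), with no annotated gene between them. Its signal was near that of the negative controls. It was above the highest trp probe set on 2 SA, 3 S, 1 RA and 3 R arrays, 9 of 20 in all, and on no array did it reach the array median of 1000. The signals on the RA arrays were 38.3, 72.9, 232, 85.2 and 24.0, against 155, 477, 392, 189.7 and 211 on the R arrays. The SA arrays had 52.8, 505, 43.8, 178 and 267, against 266, 296, 77.4, 297 and 18.3 on the S arrays. The groups overlapped in both sub-groups. Resistant rats had a log2 difference of -1.96 (limma adjusted p = 0.222). In susceptible rats it was 0.15 (adjusted p = 0.954), and its sign turned without SA replicate 2 or 5 or S replicate 3 or 5. With most signals at the background, the size of these differences is uncertain.

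Markers of monocytes, cells that make and follow Ccl2, were measured on the same arrays. In resistant rats 0 of 11 monocyte markers were called by limma, where 2.51% of all probe sets were called higher and 2.6% lower. At an unadjusted p under 0.05, 5 of the 11 were lower and 1 higher, where 17.1% of all probe sets (5267) had such a p in either direction. In susceptible rats 4 of 11 fell, among them Csf1r, the receptor of colony-stimulating factor (log2 change -0.89), and Adgre1, the macrophage adhesion receptor (-1.75), and Itgam, an integrin also found on neutrophils, rose by 0.85. Of all probe sets, 2.8% were called lower and 3.86% higher in susceptible rats. The median change of the list was -0.55 in susceptible rats, against 0.01 for all probe sets, and -0.54 in resistant rats, against -0.01, and 0 of 11 passed for the difference between the changes. The summed signal of the list was 441288 to 617510 on SA and 521640 to 598821 on S arrays, and 412601 to 602185 on RA and 414548 to 620395 on R arrays. In a bulk sample, fewer cells of a type and less RNA per cell cannot be told apart, and the part of cell numbers in the fall of Ccl2 was not tested.

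Ccl4 and Ccl6 were higher after APAP in both sub-groups, and Ccl5 passed the test in resistant rats. In susceptible rats 2 of the 6 ligands rose, Ccl4 and Ccl6, and 0 fell, where 3.86% of all 30747 probe sets were called higher and 2.8% lower. In resistant rats 3 of the 6 rose, Ccl4, Ccl5 and Ccl6, and 1 fell, Ccl2, where 2.51% of all probe sets were called higher and 2.6% lower. The median log2 change of the 6 ligands was 0.54 in susceptible rats, against 0.01 over all probe sets, and 0.33 in resistant rats, against -0.01. All SA arrays were above all S arrays for 1 ligand, Ccl6 (3.93% of all probe sets), and all RA arrays were above all R arrays for Ccl4 and Ccl6 (3.24% of all probe sets).

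Ccl3, macrophage inflammatory protein alpha, was spread widely on the SA arrays and narrowly elsewhere. Its signals on the SA arrays were 34068, 20698, 48712, 41940.1 and 56430.2, against 27730, 27476, 28553, 26995 and 23334 on the S arrays. On the RA arrays they were 23912, 22502, 21479, 21089.9 and 33473, against 25294, 20891, 25741, 22118 and 24906 on the R arrays. Of the SA arrays, 4 were above every array of the other groups, and replicate 2 was below all S arrays, so that the groups overlapped through 1 array. The log2 signal was 15.22 ± 0.56 on SA, 14.71 ± 0.11 on S, 14.56 ± 0.27 on RA and 14.53 ± 0.13 on R arrays (SD, n = 5 each). The change in susceptible rats was 0.51 (standard error 0.21, limma adjusted p = 0.166), and without SA replicate 2 it was 0.73 (adjusted p = 0.00848). In resistant rats the change was 0.02 (adjusted p = 0.975). After dosing Ccl3 was 1.58-fold higher in SA than in RA blood (log2 difference 0.66, unadjusted p = 0.00477, adjusted p = 0.253), and 1 array again decided the call, since the difference without SA replicate 2 was 0.88 (adjusted p = 0.0335). The difference between the changes was 0.49 (adjusted p = 0.792).

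Ccl4, macrophage inflammatory protein beta, whose gene lies beside Ccl3, was higher after APAP in both sub-groups. The SA arrays had 20051, 15395, 22393, 40163 and 28895, against 7914, 9145, 12903, 20672 and 8232 on the S arrays. The RA arrays had 26608, 27381, 23773, 22199.5 and 41649, against 11049, 7723, 10781, 11387 and 18011 on the R arrays. Every RA array was above every R array, while in susceptible rats S replicate 4 reached into the SA range. The log2 rise was 1.13 in susceptible rats (limma, standard error 0.30, adjusted p = 0.0282) and 1.28 in resistant ones (standard error 0.30, adjusted p = 0.0165), folds of 2.19 and 2.43. The rise in resistant rats was called without any 1 array. That in susceptible rats was not called without S replicate 1, 2 or 5 or SA replicate 3, 4 or 5 (0.95 to 1.16, adjusted p = 0.0537 to 0.0741), nor with the methods' test (adjusted p = 0.153) or with the arrays of susceptible rats alone (adjusted p = 0.112). The changes of the sub-groups differed by -0.15, with a 95% interval of -1.04 to 0.74.

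Ccl5, the chemokine RANTES of T cells, NK cells and platelets, was 179600 to 288647 on SA, 162032 to 223181 on S, 203357 to 318688 on RA and 138499 to 225675 on R arrays. The groups overlapped in both sub-groups. In susceptible rats, SA replicate 2 (179600) lay among the S arrays, and in resistant rats only R replicate 1 (225675) reached the RA range. Its log2 signal rose by 0.64 in resistant rats (standard error 0.17, limma adjusted p = 0.0314), and the difference in susceptible rats was 0.41 (standard error 0.17, adjusted p = 0.169). The changes differed by -0.23 (95% interval -0.72 to 0.27), so that a rise in one sub-group alone was not shown. The call in resistant rats was not made without R replicate 2, 3, 4 or 5 or RA replicate 1, 2 or 5 (0.56 to 0.67, adjusted p = 0.0533 to 0.0868), with the methods' test (adjusted p = 0.119) or with the arrays of resistant rats alone (adjusted p = 0.101).

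Markers of NK cells and other cytotoxic lymphocytes rose alongside Ccl4 and Ccl5. Of 13 markers measured, 11 rose in susceptible rats (median 0.96) and 12 in resistant rats (median 1.14), and 0 fell. Their summed signal was 490795 to 810536 on SA and 297683 to 403387 on S arrays, and 618792 to 874991 on RA and 282095 to 490233 on R arrays, with every marker above the highest trp probe set on all arrays. The natural cytotoxicity receptor Ncr1 rose by 1.64 in susceptible and 1.70 in resistant rats, and perforin (Prf1), the pore-forming protein of cytotoxic granules, by 0.85 and 1.0. Of 14 T cell markers, 0 rose in either sub-group and 1 fell in each, the co-receptor Cd4 in susceptible rats (-0.67) and the co-stimulatory receptor Cd28 in resistant rats (-0.73). For comparison, 3.86% of all probe sets were called higher and 2.8% lower in susceptible rats, and 2.51% and 2.6% in resistant rats. The median change over all probe sets was 0.01 in susceptible and -0.01 in resistant rats. The part of cell numbers in the changes of Ccl4 and Ccl5 was not tested.

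Ccl6 rose in both sub-groups and had the lowest adjusted p of the 6 ligands in each. It was 415265, 283964, 355387, 312140 and 335193 on the SA arrays, against 156088, 196618, 158970, 195575 and 132585 on the S arrays. The RA arrays had 331436, 255645, 232698, 219044 and 317041, against 192314, 160574, 147277, 168813 and 166289 on the R arrays. In both sub-groups all postdose arrays were above all predose arrays. The log2 signal averaged 18.36 ± 0.21 on SA and 17.34 ± 0.24 on S arrays, a rise of 1.02 (standard error 0.15, limma adjusted p = 3.54e-04, 2.03-fold), and 18.03 ± 0.27 on RA and 17.34 ± 0.14 on R arrays, a rise of 0.68 (standard error 0.15, adjusted p = 0.00883, 1.61-fold). The rise in susceptible rats was called under every alternative tried (0.91 to 1.09), and that in resistant rats under all but the methods' test (adjusted p = 0.0662). The rises differed by 0.34 (95% interval -0.09 to 0.77, adjusted p = 0.798), and after dosing SA was 1.26-fold above RA (unadjusted p = 0.033, adjusted p = 0.479).

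Neutrophil markers rose with Ccl6. Of 10 measured, 6 rose in susceptible (median 0.67) and 4 in resistant rats (median 0.57), and 0 fell, with a summed signal of 921156 to 1451460 on SA and 512593 to 693709 on S arrays, and of 859189 to 1073450 on RA and 527944 to 735843 on R arrays. Between SA and RA, 1 of the 10 was called by limma, higher in SA, where 0.143% of all probe sets were called. For the difference between the changes 0 of 10 passed. In resistant rats 6 of the 10 were higher and 1 lower at an unadjusted limma p under 0.05, where 17.1% of all probe sets had such a p. The list includes Csf3r, a receptor that drives neutrophil production. The part of neutrophil numbers in the rise of Ccl6 was not tested. On the same arrays 4 of 6 B cell markers fell in susceptible and 1 of 6 in resistant rats, and 0 of 8 platelet, 0 of 6 erythroid and 0 of 7 eosinophil, basophil and mast cell markers were called in either sub-group. The shares of all probe sets called were 3.86% higher and 2.8% lower in susceptible rats, and 2.51% and 2.6% in resistant rats. RNA of 2 liver genes, albumin (Alb) and fetuin-A (Ahsg), rose in susceptible rats by 3.17 and 2.62, while 0 of 9 liver markers were called in resistant rats, between SA and RA or in the difference between the changes. Of the 9, only 1 was above the highest trp probe set on all arrays, and the summed liver signal was 3558 to 29229 on SA and 1587 to 3147 on S arrays, and 2149 to 3982 on RA and 2581 to 3484 on R arrays.

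Ccl6 lies on chromosome 10 beside Ccl9, a chemokine that in mice shares the receptor Ccr1 with it, with no protein-coding gene between them in the GRCr8 annotation, and these neighbours moved in opposite directions after APAP. Ccl9 was 447 to 1353 on SA and 882 to 2647 on S arrays, and 609 to 874 on RA and 1106 to 2748 on R arrays. Its log2 signal fell by 1.23 in susceptible rats (limma adjusted p = 0.0296) and by 1.30 in resistant ones (adjusted p = 0.0261), the only other CC ligand called, and all 5 RA arrays were below all 5 R arrays. The share of all probe sets with that separation is not given here. The 250 bases before each gene's annotated start are given because the data set these neighbours apart. They are written 5' to 3' on the minus strand from the RefSeq promoter table of GRCr8, which held 2 of the 6 ligands, Ccl6 and Ccl7. Capitals mark the TATA box letters TATAAA and the letters ACTTCCT, a core of the binding site of ETS family factors, on either strand.
Ccl6, chr10:68883367-68883616: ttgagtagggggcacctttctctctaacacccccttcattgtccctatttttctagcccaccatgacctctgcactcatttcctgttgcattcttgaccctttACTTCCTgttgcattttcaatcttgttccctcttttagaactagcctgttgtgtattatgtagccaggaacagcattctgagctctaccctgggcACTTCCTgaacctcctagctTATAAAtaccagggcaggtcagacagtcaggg
Ccl9, chr10:68868878-68869127: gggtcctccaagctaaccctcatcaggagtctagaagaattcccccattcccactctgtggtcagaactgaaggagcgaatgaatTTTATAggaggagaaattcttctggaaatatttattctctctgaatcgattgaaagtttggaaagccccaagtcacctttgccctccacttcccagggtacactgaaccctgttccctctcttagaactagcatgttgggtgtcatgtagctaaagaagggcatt

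The Ccl6 sequence holds TATAAA at bases 32 to 27 before the start and ACTTCCT at 147 to 141 and at 52 to 46. The Ccl9 sequence holds TATAAA only on the other strand, at 165 to 160, while ACTTCCT lies at bases 19 to 25 after its annotated start and TATAAA at 40 to 45 after it, overlapping a match on the other strand at 38 to 43. A local alignment over the 300 bases around each start paired 102 bases, of which 84 (82.4%) were identical, with 4 gaps. It ran over bases 124 to 22 before the start of Ccl6, and from 55 before to 50 after the annotated start of Ccl9. These stretches hold the TATAAA and the nearer ACTTCCT of Ccl6, and the TATAAA and ACTTCCT after the annotated start of Ccl9. The aligned stretches thus share both sets of letters, at different distances from the annotated starts. The sequences printed above end at the annotated starts, so their letters alone cannot show a promoter difference between the genes. Among 33469 promoter windows of 300 bases in the table, 14.2% held TATAAA and 8.41% held ACTTCCT on either strand, and 0.523% held ACTTCCT 2 or more times. A match of letters shows no binding.

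**Figure D2:**
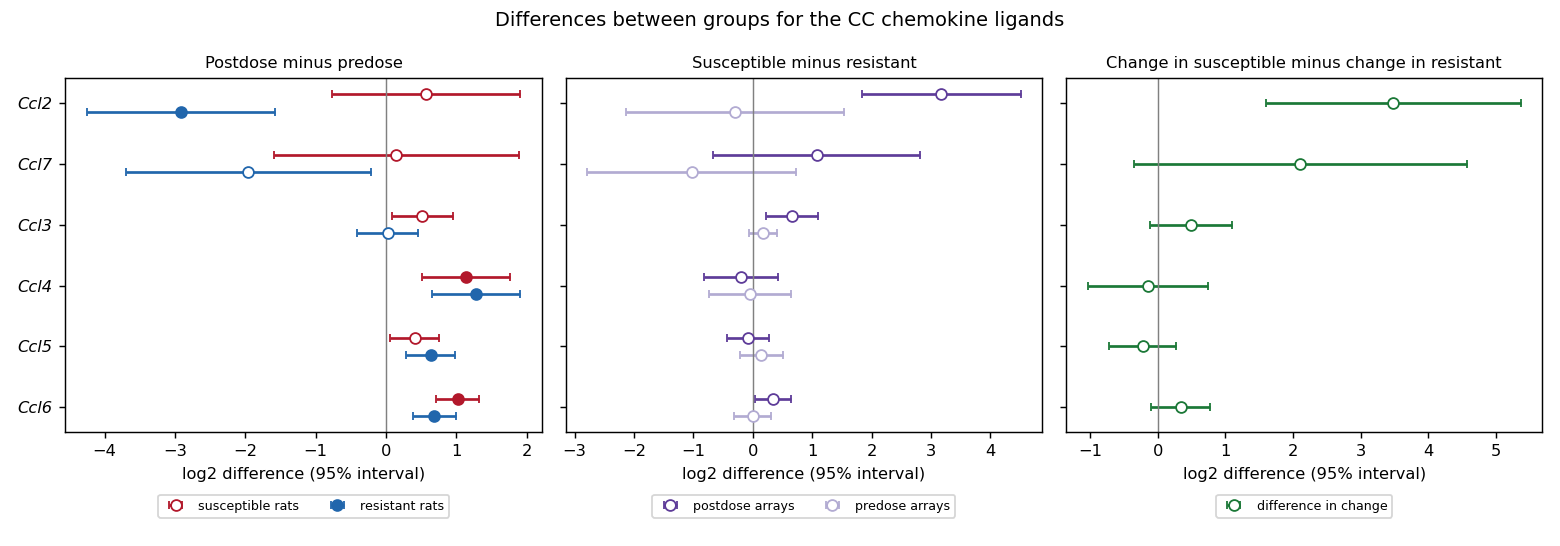
Log2 differences of the 6 ligands with 95% intervals (horizontal axes), for postdose minus predose in each sub-group, for susceptible minus resistant rats at each time, and for the difference between the changes. Filled points passed the limma test at an adjusted p under 0.05. The lowest filled point is Ccl2 in resistant rats at -2.91, and no point of the middle and right panels is filled.

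After dosing, 0 of the 6 ligands passed the limma test between SA and RA, where 0.143% of all 30747 probe sets were called, and 3 of them had an unadjusted p under 0.05 (Ccl2, Ccl3 and Ccl6, each higher in SA), where 9.18% of all probe sets did. Ccl4 and Ccl5 were close between the sub-groups, with log2 differences of -0.20 (95% interval -0.83 to 0.43) and -0.08 (95% interval -0.43 to 0.27). Before dosing, 0 of the 6 ligands differed between S and R arrays in the limma test, where 0.00329% of 30416 probe sets were called, and 0 of the 6 had an unadjusted p under 0.05, where 3.74% of all did. The predose log2 difference of Ccl2 was -0.30, with a 95% interval of -2.14 to 1.53, so that a 4.41-fold difference in R was still within the interval. For Ccl3, Ccl4, Ccl5 and Ccl6 the predose differences were 0.17, -0.05, 0.14 and -0.00, and for Ccl7 it was -1.03.

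Of a list of CC receptors and atypical receptors, not all of which read the ligands described here, 10 were measured. Ccr1, a receptor of Ccl3 and Ccl5, rose in both sub-groups. It was 53555, 34100.1, 69887, 38053 and 45760.2 on the SA arrays, against 12030.1, 20823, 9831, 10552 and 8270.4 on the S arrays. The RA arrays had 26814, 32926, 24134, 26023 and 33694, against 11406, 16557, 11318, 13696 and 12340 on the R arrays. In each sub-group all postdose arrays were above all predose arrays, which held for 3.93% of all probe sets in susceptible and 3.24% in resistant rats. In susceptible rats the log2 rise was 2.0 (limma adjusted p = 5.66e-05), against 1.14 in resistant ones (adjusted p = 0.00565). The rises differed by 0.86 (unadjusted p = 0.015, adjusted p = 0.569). Ccr2, the receptor of Ccl2 and Ccl7, was not called, its log2 difference being 0.50 in the susceptible animals (adjusted p = 0.433) and -0.10 in the resistant ones (adjusted p = 0.926). Ccr10, a receptor of skin and mucosal chemokines, rose in resistant rats by 1.80 (adjusted p = 0.0367), at 538 to 1260.3 on RA against 95.2 to 906 on R arrays. On the R arrays it was above the highest trp probe set in 4 of 5. In susceptible rats the Ccr10 change was -0.30 (limma adjusted p = 0.808), at 425 to 979 on SA against 472 to 1178 on S arrays. The Ccr10 changes differed by -2.10, which did not pass (limma adjusted p = 0.484).

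Ccrl2, an atypical receptor that binds chemerin without signalling, fell in resistant rats as Ccl2 did. Its signals were 29858, 20963, 34819.6, 21755 and 26021 on the SA arrays, against 17729, 23890.2, 11659.5, 14549 and 16824 on the S arrays. The RA arrays had 8868, 8029.5, 10991, 8173 and 12609, against 13972, 23747, 19839.6, 17819.5 and 15804 on the R arrays. All RA arrays were below all R arrays and below all SA arrays. For 1.56% of all probe sets every SA array was above every RA array, and the share for RA below R is not given here. Ccrl2 fell by 0.90 in resistant rats (limma adjusted p = 0.0128), the change in the susceptible ones was 0.67 (adjusted p = 0.0563), and after dosing SA was above RA by 1.45 (adjusted p = 0.00967). The difference between the changes was 1.57 (unadjusted p = 3.47e-05, adjusted p = 0.161).

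**Figure D3:**
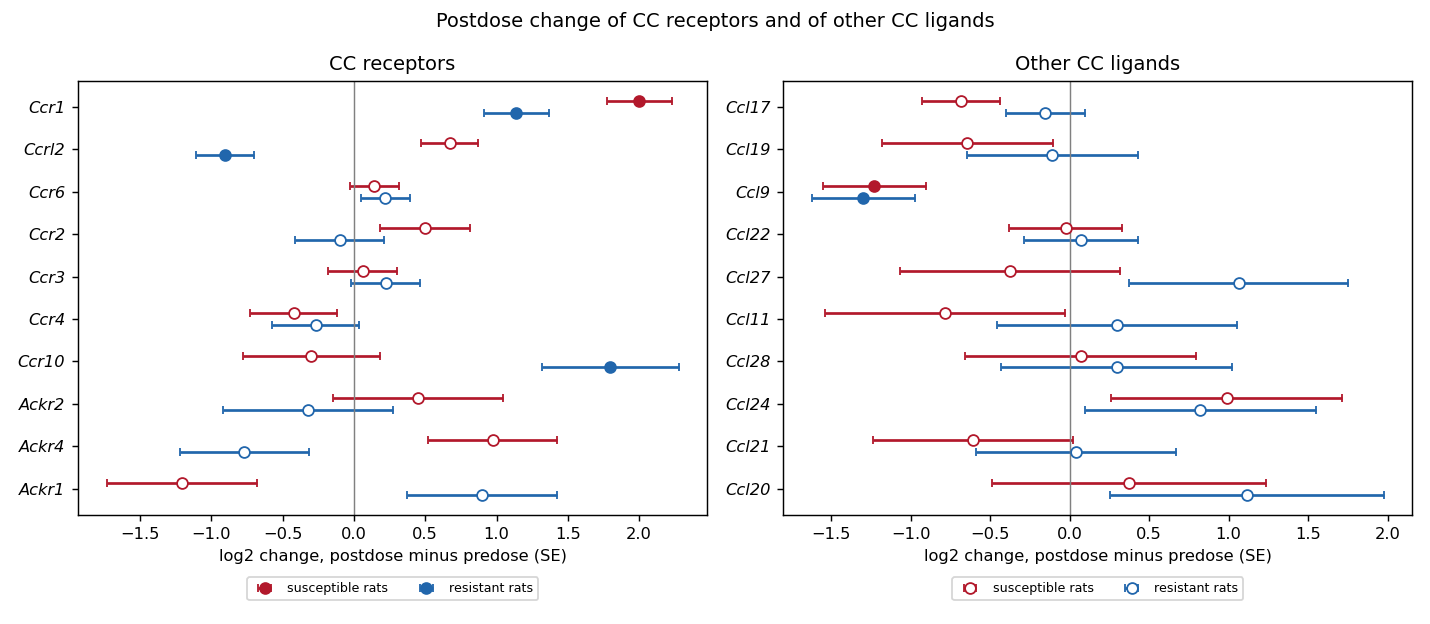
Log2 change from predose to postdose arrays with its standard error (horizontal axes) for 10 CC receptors and 10 other CC ligands, susceptible rats in red and resistant rats in blue, genes ordered by mean signal from the top. Filled points passed the limma test. Ccr1 is filled in both sub-groups (2.0 and 1.14), as is Ccl9 (-1.23 and -1.30).

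Of 10 other CC ligands measured, 0 rose and 1, Ccl9, fell in each sub-group. Calls of a fall were made for 2.8% of all probe sets in susceptible and 2.6% in resistant rats. The most abundant of them, Ccl17 and Ccl19, which attract T cells, changed by -0.68 and -0.64 in susceptible and by -0.15 and -0.11 in resistant rats, none past the limma test. The median of the 10 was -0.49 in susceptible rats, against 0.01 over all probe sets, and 0.18 in resistant rats, against -0.01. Only 3 of the 10 were above the highest trp probe set on all arrays, so that the size and sign of these medians are uncertain.

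The arrays measured 25 inducers and regulators of chemokine genes (cytokines, NF-kappaB and AP-1 subunits, interferon regulatory factors and feedback proteins). Of these, 6 rose and 1 fell in susceptible rats, and 1 rose and 3 fell in resistant rats. Among all probe sets, 3.86% were called higher and 2.8% lower in susceptible rats, against 2.51% and 2.6% in resistant rats. Taken over these 25 genes, log2 changes in susceptible rats had a median of 0.12, where all probe sets had 0.01. For resistant rats the genes and all probe sets alike had -0.01. Il1b, a cytokine that starts inflammation, rose in both sub-groups, by 1.69 and 0.98. Tnfaip3, an inhibitor of NF-kappaB signalling, fell in both, by 0.75 and 0.94. Called in susceptible rats alone were the AP-1 subunits Jun (0.64) and Fos (0.78), the interferon regulatory factor Irf1 (0.71), the mRNA-destabilizing protein Zfp36 (0.87) and the phosphatase Dusp1 (0.71), whose differences between the sub-groups' changes did not pass (adjusted p = 0.161 to 0.979). Called in resistant rats alone were falls of Fosb, an AP-1 subunit (-2.53), and of Irf7, a regulator of interferon genes (-1.14), whose differences did not pass either (adjusted p = 0.570 and 0.442). Irf1 also differed after dosing, at 65193 to 85766 on SA against 37068 to 44377 on RA arrays (log2 difference 0.91, limma adjusted p = 0.00967).

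**Figure D4:**
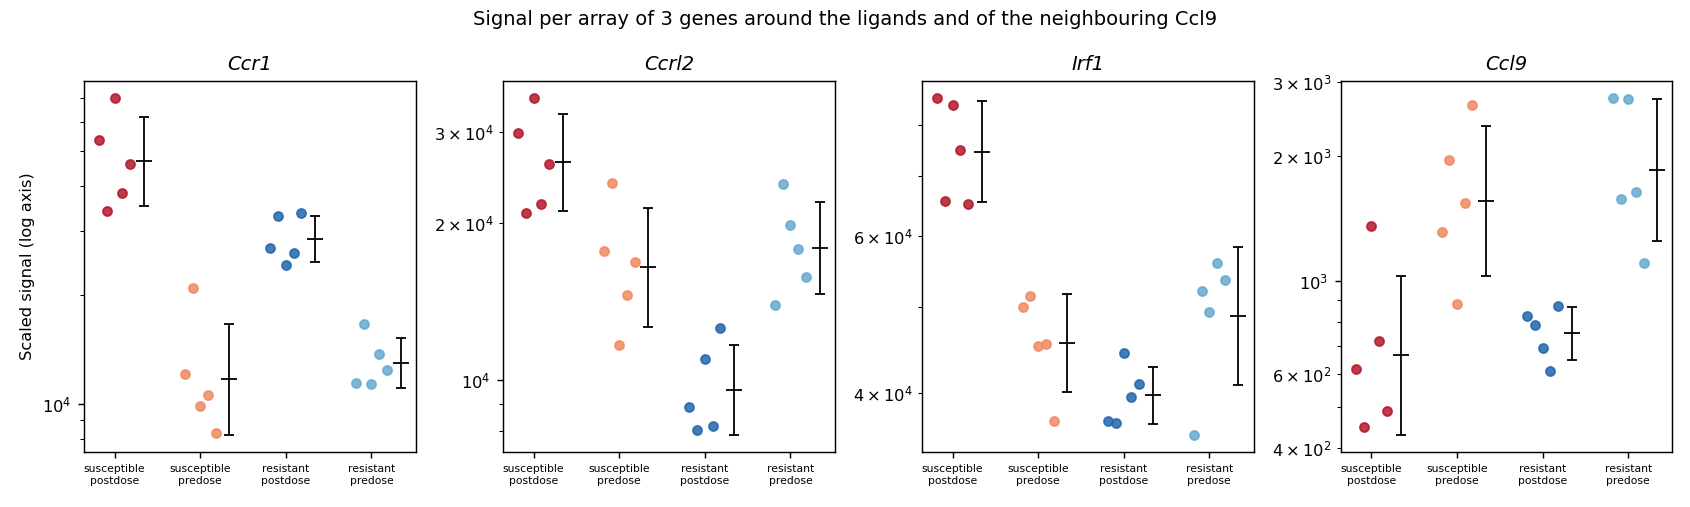
Signal per array (vertical log axes) of Ccr1, Ccrl2, Irf1 and Ccl9, with 5 arrays per group for SA, S, RA and R from left to right and the mean and SD of the log2 values beside them. Ccrl2 and Irf1 are higher on every SA array than on every RA array, and Ccl9 is lower on every RA array than on every R array.

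The genes most like each ligand over the 20 arrays were taken as the 3 with the highest Pearson correlation of log2 signal, among 8866 genes whose mean signal was at or above the median. These correlations describe arrays that share the group differences, so the correlation of deviations from the group means is given beside them. Ccl2 was most like Atf3, a stress-induced transcription factor (r = 0.90, within groups 0.74), Tent4a, a poly(A) polymerase (0.90 and 0.75), and Ifgga2l1 (0.87 and 0.73). Atf3 fell in resistant rats by 1.05 (limma adjusted p = 0.00667), changed by 0.48 in susceptible rats (adjusted p = 0.227) and was above RA in SA blood by 1.26 (adjusted p = 0.0212), at 10810.3 to 15229.5 on SA and 4247 to 6451 on RA arrays. Since these genes were chosen for their likeness to Ccl2 on the same arrays, their changes add no separate evidence on it.

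Ccl4 was most like Faslg, the ligand of the death receptor Fas on cytotoxic cells (0.93, within groups 0.80), Glce (0.92 and 0.76) and C2h5orf22 (0.91 and 0.78). Ccl5 was most like Gzmk (0.93 and 0.88), Nkg7 (0.92 and 0.87) and Prf1 (0.91 and 0.87), 3 genes of cytotoxic granules that also stand in the list of NK and cytotoxic markers. Ccl6 was most like Nudt4, a diphosphoinositol phosphatase (0.97 and 0.86), Lrg1, a glycoprotein of neutrophil granules (0.96 and 0.81), and Alox5ap, an activating protein of leukotriene synthesis (0.96 and 0.79). The correlations were lower for Ccl3, with Tp53inp1 (0.77 and 0.61), Psme4 (0.77 and 0.55) and Ccng2 (0.74 and 0.77), and for Ccl7, with Ankrd37 (0.71 and 0.59), Cdyl2 (0.70 and 0.70) and Vps16 (0.69 and 0.73, over 8867 genes). Among the ligands themselves, Ccl4 and Ccl5 (0.82, within groups 0.57), Ccl5 and Ccl6 (0.79 and 0.61) and Ccl4 and Ccl6 (0.77 and 0.36) had the highest correlations over the 20 arrays. Within groups, Ccl3 with Ccl5 (0.59, over all arrays 0.50) and Ccl3 with Ccl4 (0.57, over all arrays 0.45) were above Ccl4 with Ccl6, and Ccl2 with Ccl7 had 0.16 (over all arrays 0.41).

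**Figure D5:**
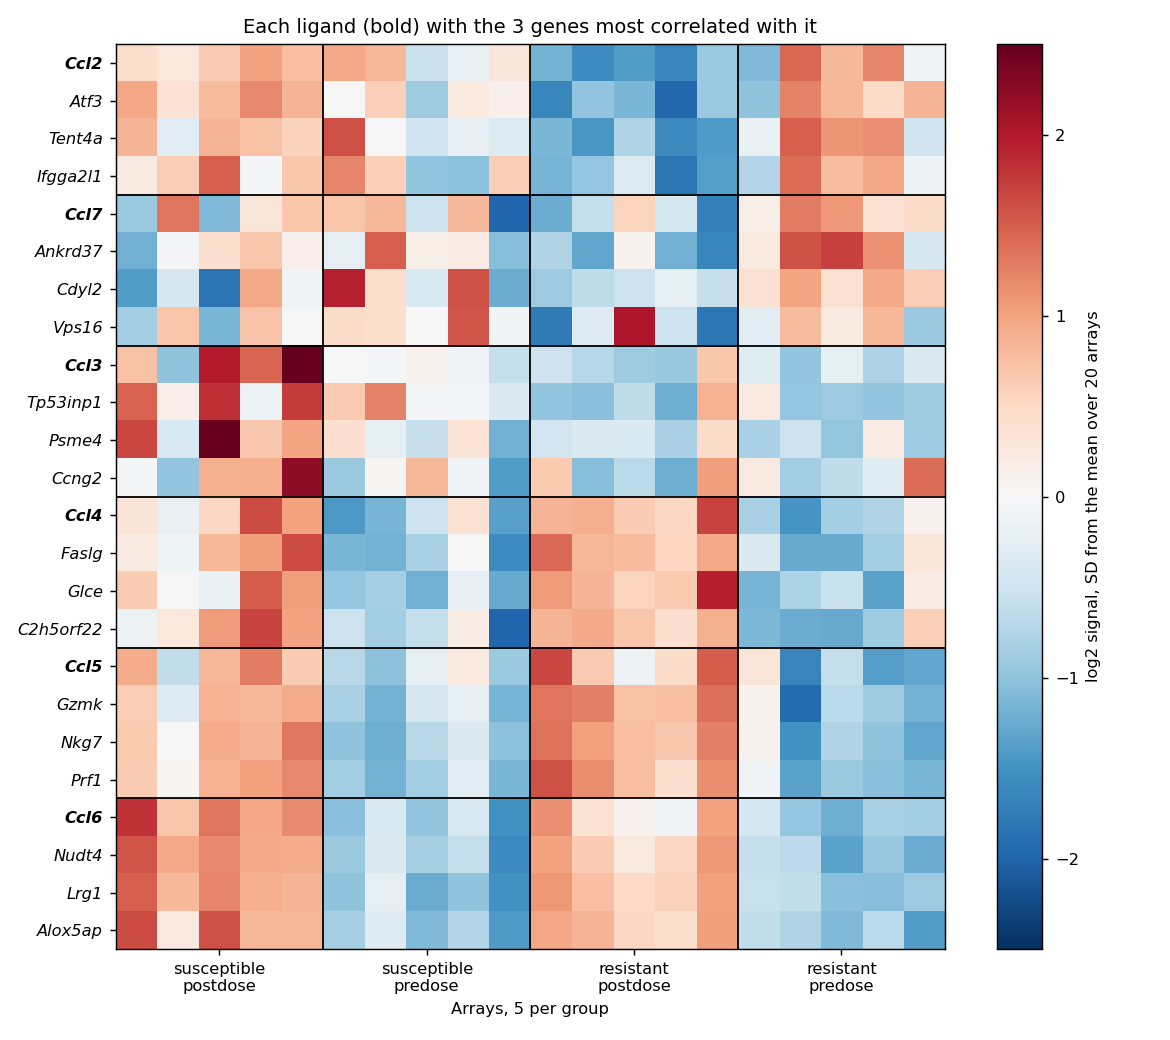
Log2 signal of each ligand (bold) and of the 3 genes most correlated with it, as SDs from the mean over the 20 arrays (colour scale), with arrays in columns by group. The Ccl2 block is low on the RA arrays, and the Ccl4, Ccl5 and Ccl6 blocks are mostly above the mean on SA and RA arrays and mostly below it on S and R arrays.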

How the data were processed

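Blood RNA of 20 rat samples was hybridized to Affymetrix Rat Genome 230 2.0 arrays, 1 per sample. The authors deposited 1 linear intensity per probe set and array, and the methods name ArrayTrack and a median of 1000 per chip. The deposited medians lie near 200, and the software that made these intensities is not given in the sources used here. With 57 controls left out, the other 31042 probe sets were brought to a median of 1000 on every array and put on the log2 scale. Scaling to the median assumes that most RNAs kept their level. Probe sets under 100 on all arrays of a fit were left out. The methods applied that limit to the predose chips alone, which here holds for the predose comparison. The platform annotation gives 1 gene symbol for 20826 probe sets, several for 436 and none for 9780.

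Tests were made with lmFit and eBayes of limma 3.58.1 (R 4.3.3), at an adjusted p under 0.05. The 2 postdose changes, their difference and the postdose comparison used all 20 arrays with 1 spread per probe set (30747 tested), and the predose comparison its 10 arrays (30416 tested). The fit was tested on simulated data. All probe sets of the 6 ligands are named, and of each gene list the members past the threshold and the 2 of highest signal could be named, the brightest probe set standing for a gene. The ligands and all gene lists were chosen with earlier results of these data known. Each ligand's 3 most correlated genes were taken by a fixed rule. The alternatives tried were a block for the replicate number, quantile normalization, unscaled deposited values, a limit of 400 or none, a pseudocount of 100, other arrays in the fit, leaving out each array, and the test of unequal variances that the methods name, with adjustment. The number of arrays limits the precision. Sequences were aligned with Biopython 1.88 in Python 3.11.15, and figures drawn with matplotlib 3.10.9. Measurements of serum, tissue and PCR were not analysed here.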

Additional observations from a re-analysis of the deposited data

Results flagged for a closer look

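Ccl3 stood out on 2 arrays, among 24 combinations of ligand and group examined, where chance marks about 1 in 20. On RA replicate 5 its signal of 33473 lay above the other RA arrays, whose next highest was 23912, and the gap made up 0.728 of the group's log2 range (limit 0.71). On S replicate 5 its signal of 23334 lay below the other S arrays, whose next lowest was 26995, with a gap of 0.722 of the range. RA replicate 5 also had the highest Ccl2 and Ccl4 signals of its group, and S replicate 5 the lowest Ccl6 and Ccl7 signals, with gaps inside the limit. The cause was not tested.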

How the results depend on the processing

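Of 768 values of single ligands under an alternative, 714 kept their direction and their side of the threshold, 21 lost a call, 9 gained one and 24 changed sign. The sign changes were all of differences that had not been called. Quantile normalization gave 0.0021 and the values as deposited 0.0101 for Ccl6 before dosing. Leaving out single arrays gave -0.55 to 0.57 for Ccl7 after APAP in susceptible rats, -0.0937 to 0.0729 for Ccl3 in resistant rats, -0.335 to 0.0786 for Ccl4 in the difference between changes, -0.167 to 0.0297 for Ccl5 between SA and RA, and before dosing -0.933 to 0.0903 for Ccl2, -0.278 to 0.117 for Ccl4 and -0.0634 to 0.0787 for Ccl6.

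The number of ligands called in susceptible rats, 2, was 1 with the methods' test and with only the arrays compared, and 1 to 3 without single arrays. In resistant rats it was 4, and 1 with the methods' test, 2 with only the arrays compared and 3 to 4 without single arrays. Between SA and RA it was 0, and 1 (Ccl2) with quantile normalization (adjusted p = 0.0420), a limit of 400 (0.0451), a pseudocount of 100 (0.0406) and only the arrays compared, and 0 to 1 without single arrays. It was 0 to 0 without single arrays before dosing and for the difference between changes.

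Over all probe sets, the 2048 called in susceptible rats became 578 with the methods' test and 869 with only the arrays compared (1332 to 2270 without single arrays, the lowest without SA replicate 3). The 1570 in resistant rats became 729 and 955 (967 to 1660, the lowest without R replicate 3). The 44 between SA and RA became 73 with quantile normalization and 0 with the methods' test (7 to 89). The 1 before dosing became 0 with a pseudocount, the methods' test or all 20 arrays (0 to 2). The difference between changes gave 0 to 2.

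The replicate number as a block gave 1290 calls in susceptible rats, 970 in resistant rats, 8 between SA and RA and 0 before dosing. Among the ligands it ended 1 call, that of Ccl2 in resistant rats (adjusted p = 0.0682). Deviations of same-numbered arrays correlated at -0.03 to 0.05. In 4 of 10 pairs the own number correlated best among the 5 arrays it could match. Correlations this small over all probe sets cannot decide whether equal numbers are the same rat.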
